A study of Mus musculus with 9 samples.

Results

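The septin genes were followed through 9 sequencing libraries of mouse mammary fibroblasts grown alone or with breast carcinoma cells. In the deposited table their symbols had been turned into dates by a spreadsheet, so that Septin2 was the row 2-Sep. Rows of the form number-Sep with numbers 2 to 11 were taken, which gave 9 genes of the 11931 in the table: Septin2, Septin4, Septin5, Septin6, Septin7, Septin8, Septin9, Septin10 and Septin11. The deposited table had no row 3-Sep. The row 15-Sep, a selenoprotein gene, and 7 rows with March dates were left out. All 9 rows matched a mouse gene through the older symbols Sept2 to Sept11, and each date name stood on 1 row. The rows were picked by name and by no measured value, but the septin genes as a topic were chosen with earlier results of these data known. Just outside the number range, 1-Sep (Septin1) had deposited values between 1.4 and 5.6 in the 9 libraries.

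The fibroblasts (normal mammary fibroblasts in the labels) came from the mammary fat of female BALB/c mice aged 12 weeks and had 1 week on collagen to recover. They were then grown alone for 5 days (monoculture), or under 4T1-GFP cells, a BALB/c mammary carcinoma line carrying green fluorescent protein, for 3 or 5 days (3-day and 5-day co-culture). Cells of all 3 groups were gated as GFP-negative and positive for podoplanin (PDPN), a surface protein of fibroblasts, and their RNA was read at its 3′ ends, with 3 libraries per group. The comparisons ask how fibroblast expression differs after contact with carcinoma cells; there was no 3-day monoculture, so time and co-culture cannot be told apart in the 3-day comparison. The labels number the replicates but do not say whether they were separate cultures or mice, so p-values measure the spread between these samples, which may be technical. Both co-culture groups were set against the same 3 monoculture libraries.

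Septins are GTP-binding proteins that join end to end into rod-shaped complexes and then into filaments, rings and cages at membranes, along actin stress fibres and on microtubules. They fall into 4 sequence groups, and a complex usually takes 1 kind of subunit from each group, with members of a group able to replace each other. Septin7 is the only member of its group and is a core subunit; Septin9 of the SEPT3 group is the ubiquitous subunit that extends the complex. In fibroblasts septins act in cytokinesis, in stress fibre organisation and in cell contraction, and CDC42 effector proteins of the BORG family bind them and shape their filaments.

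The study of which these libraries are a part concerned DNA methylation and the transcription factor RUNX1, and methylation was not analysed here. Start-site windows are shown for the septin gene that passed the test (Septin11), for the higher Septin2, whose libraries spread little, and for 2 starts of Septin9, whose libraries spread widely. The windows are RefSeq sequence of GRCm38.p6, 250 bases before to 50 bases after an annotated start, 5′ to 3′ on the plus strand. The capitals mark the GC box GGGCGG bound by SP1 factors and the AP-1 site TGACTCA, each on either strand, so that the GC box also reads CCGCCC. The Septin11 window is chr5:93093166-93093465, the Septin2 window chr1:93478743-93479042, the first Septin9 window chr11:117199411-117199710 and the later one chr11:117331465-117331764.
Septin11: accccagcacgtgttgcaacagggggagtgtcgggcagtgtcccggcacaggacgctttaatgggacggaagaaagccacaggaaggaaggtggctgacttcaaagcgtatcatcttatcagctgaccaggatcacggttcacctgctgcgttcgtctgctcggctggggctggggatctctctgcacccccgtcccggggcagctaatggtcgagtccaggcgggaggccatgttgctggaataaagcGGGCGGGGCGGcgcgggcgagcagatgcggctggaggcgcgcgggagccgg
Septin2: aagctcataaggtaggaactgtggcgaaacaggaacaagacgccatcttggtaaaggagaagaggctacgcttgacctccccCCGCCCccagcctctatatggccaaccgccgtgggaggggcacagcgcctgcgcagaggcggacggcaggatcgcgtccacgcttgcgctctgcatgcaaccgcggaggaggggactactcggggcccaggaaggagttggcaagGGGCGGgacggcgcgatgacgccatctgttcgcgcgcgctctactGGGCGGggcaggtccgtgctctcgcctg
Septin9, first start: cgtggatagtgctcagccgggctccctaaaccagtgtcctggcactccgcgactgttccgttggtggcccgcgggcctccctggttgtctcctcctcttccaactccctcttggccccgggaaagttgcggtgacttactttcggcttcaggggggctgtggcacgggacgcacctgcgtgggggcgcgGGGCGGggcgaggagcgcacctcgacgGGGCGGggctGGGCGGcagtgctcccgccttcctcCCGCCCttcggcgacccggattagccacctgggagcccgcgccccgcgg
Septin9, later start: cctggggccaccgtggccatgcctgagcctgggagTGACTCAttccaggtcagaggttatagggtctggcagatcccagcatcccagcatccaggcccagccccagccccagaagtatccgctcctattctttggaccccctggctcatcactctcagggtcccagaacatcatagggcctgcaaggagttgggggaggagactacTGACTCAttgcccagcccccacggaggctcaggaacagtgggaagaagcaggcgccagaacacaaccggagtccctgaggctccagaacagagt
The Septin11 window was 64.3% G and C with 25 CpG dinucleotides and 2 GC boxes that overlap by 1 shared G. Septin2 had 65.7% G and C, 29 CpG and 3 GC boxes. The first Septin9 window had 71.3%, 31 CpG and 4 GC boxes, whereas the later one had 60.7%, 5 CpG, no GC box and 2 AP-1 sites.

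RefSeq windows were matched for 7 of the 9 septin genes, 16 windows in all; some windows of Septin2 and of Septin4 overlap each other. Their median content was 64.5% G and C and 18 CpG, against 52.7% and 7 over all 32851 windows. A GC box stood in 10 of the 16 windows (35.7% of all windows), a CCAAT box (CCAAT) in 2 (37.4%) and an AP-1 site in 2 (5.20%). The RUNX core letters TGTGGT, searched on both strands, stood in 0 of the 16 windows and in 16.8% of all windows. Only this form of the RUNX core was searched. The variant TGCGGT, which stands in the first Septin9 window and on the other strand in overlapping windows of Septin4, was not counted. The TATA box letters TATAAA stood in 0 of the 16 windows and in 13.6% of all windows. These matches describe letters in the windows and not binding. The library method reads transcript ends, so the starts in use were not measured.

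Values are the authors' normalised counts, in which the reads of a library share 1 scaling factor; what 1 read is worth lay between 0.481 and 1.66 units. The libraries held between 1048471 and 3567326 recovered reads. Fibroblast markers were abundant in every library, with 12 markers summing to 46227 to 63829 in monoculture, 44399 to 55637 at 3 days and 39564 to 53754 at 5 days. Of these 12, 5 were lower at 3 days, and 6 were lower and 1 higher at 5 days (median log2 fold changes -0.12 and -1.36); their part in the septin results was not tested. Epithelial markers moved with co-culture: 17 of 20 listed genes were in the table, and they summed to 56.1 to 85.9 in monoculture, 1154 to 1324 at 3 days and 1122 to 1564 at 5 days. Of the 16 tested, 15 were higher in each co-culture group; Epcam and Cdh1, which define epithelium, had monoculture medians of 0 and co-culture medians between 14.9 and 23.4. The part of carcinoma RNA in any septin result was not tested. For 8 leukocyte genes the sums in the 3 groups, in the same order, were 75.8 to 266, 110 to 348 and 63.5 to 157, and for 2 endothelial genes 25.5 to 28.3, 34.7 to 41.7 and 27 to 30.7. They were 2619 to 3889, 3560 to 8046 and 1731 to 2411 for 6 pericyte and smooth muscle genes, and 39.9 to 59.5, 15 to 20.2 and 23.3 to 33.7 for 4 Schwann and neuronal genes. The adipocyte list was left with Fabp4, which was at 93.5 to 145 in monoculture and at 5 to 22.3 in co-culture.

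The 9 septin values of a library summed to between 1140 and 1332. The mean sum was 1195 ± 32.2 in monoculture (SD, n = 3), 1202 ± 68.4 at 3 days and 1271 ± 59.3 at 5 days. The SEPT2 group (Septin2, Septin4 and Septin5) took 50.3% ± 0.569 of the septin sum in monoculture, 54.9% ± 4.70 in the 3-day and 52.3% ± 3.74 in the 5-day co-culture (SD, n = 3). The SEPT6 group (Septin6, Septin8, Septin10 and Septin11) took 31.3% ± 4.95, 27.4% ± 3.65 and 23.5% ± 2.66. The mean share of the SEPT6 group was lowest at 5 days, where its libraries lay between 21.1% and 26.4%, and those of the monoculture between 26.4% and 36.3%. Septin7 took 9.63% ± 5.64, 12.3% ± 8.43 and 13.4% ± 5.29, and Septin9 took 8.82% ± 2.30, 5.39% ± 3.13 and 10.9% ± 6.83. The libraries of the groups overlapped in the shares of both.

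**Figure D1:**
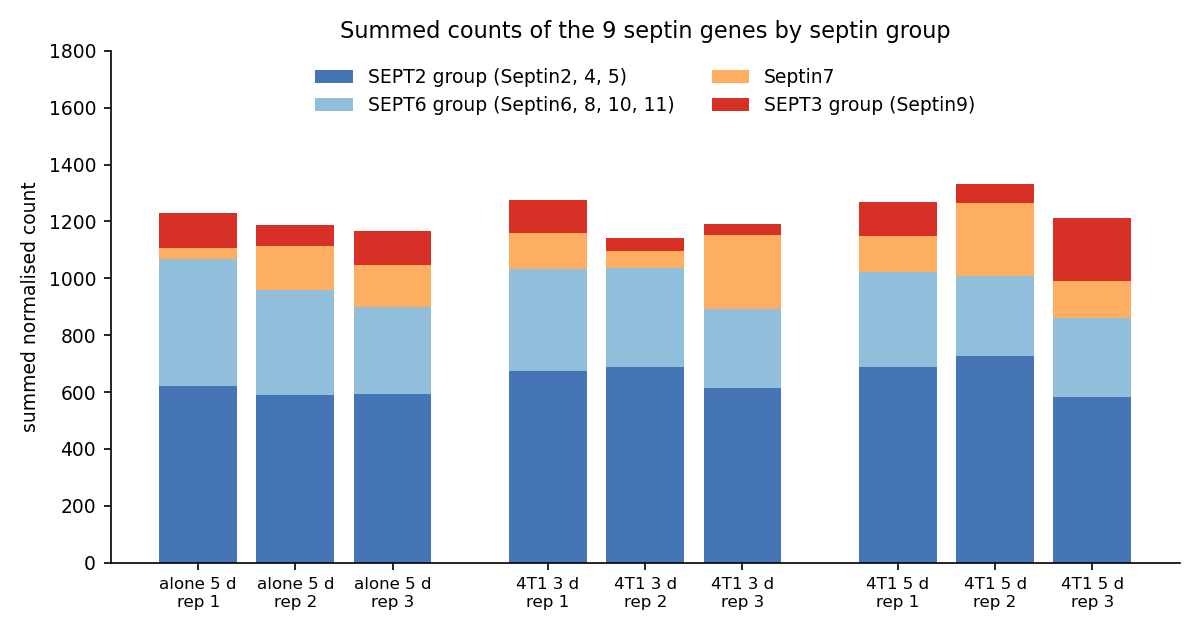
Summed normalised counts of the 9 septin genes in each of the 9 libraries (bar height, starting at 0), split by septin group. The sums stay between 1140 and 1332 in all libraries, while the parts of Septin7 and of Septin9 (SEPT3 group) differ between libraries of 1 group.

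Ranked by their mean normalised count over the 9 libraries, the order was Septin5 (353), Septin2 (284), Septin8 (199), Septin7 (145), Septin11 (108), Septin9 (102), Septin10 (22.0), Septin6 (5.11) and Septin4 (4.73). These are counts of transcript ends and were not divided by transcript length. Septin5 was above Septin2 in 8 of 9 libraries and Septin2 above Septin8 in 9. Septin8 exceeded Septin7 in 7 libraries, and Septin7 exceeded Septin11 in 7. Septin11 was above Septin9 in 5 of 9 and Septin6 above Septin4 in 5, so these neighbours were not separated by the spread between libraries. Septin9 stood above Septin10, and Septin10 above Septin6, in 9 of 9 libraries.

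In the test across all genes, 1 of the 9 septin genes passed at 3 days of co-culture, Septin11, which fell; 20.0% of the 10639 tested genes passed in that comparison (limma with Benjamini-Hochberg adjustment, threshold 0.05), 10.6% as higher and 9.37% as lower. At 5 days 0 of 9 passed, against 24.0% of tested genes (12.6% higher, 11.4% lower), and between the co-culture times 0 of 9 passed, against 6.91% (3.20% higher, 3.71% lower). At an unadjusted limma p under 0.05 there were 2 septin genes at 3 days (32.9% of tested genes), 1 at 5 days (35.5%) and 1 between the times (22.3%). On the recovered reads, edgeR and DESeq2 each called Septin11 at 3 days, among 2239 and 2049 genes in all. At 5 days edgeR called 1 septin gene, Septin4, among 2736, and DESeq2 0 among 2550; between the times both called 0, among 677 and 746. The libraries of the compared groups did not overlap for 3 of 9 septin genes at 3 days (37.4% of tested genes), 2 at 5 days (40.9%) and 1 between the times (24.6%). As a share of 9, each of these limma counts in either direction, and each count of separated groups, was below that of all tested genes. The median log2 fold change of the 9 was -0.01 at 3 days, 0.09 at 5 days and 0.18 between the times, beside 0.0014, -0.0078 and -0.0052 over all tested genes.

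**Figure D2:**
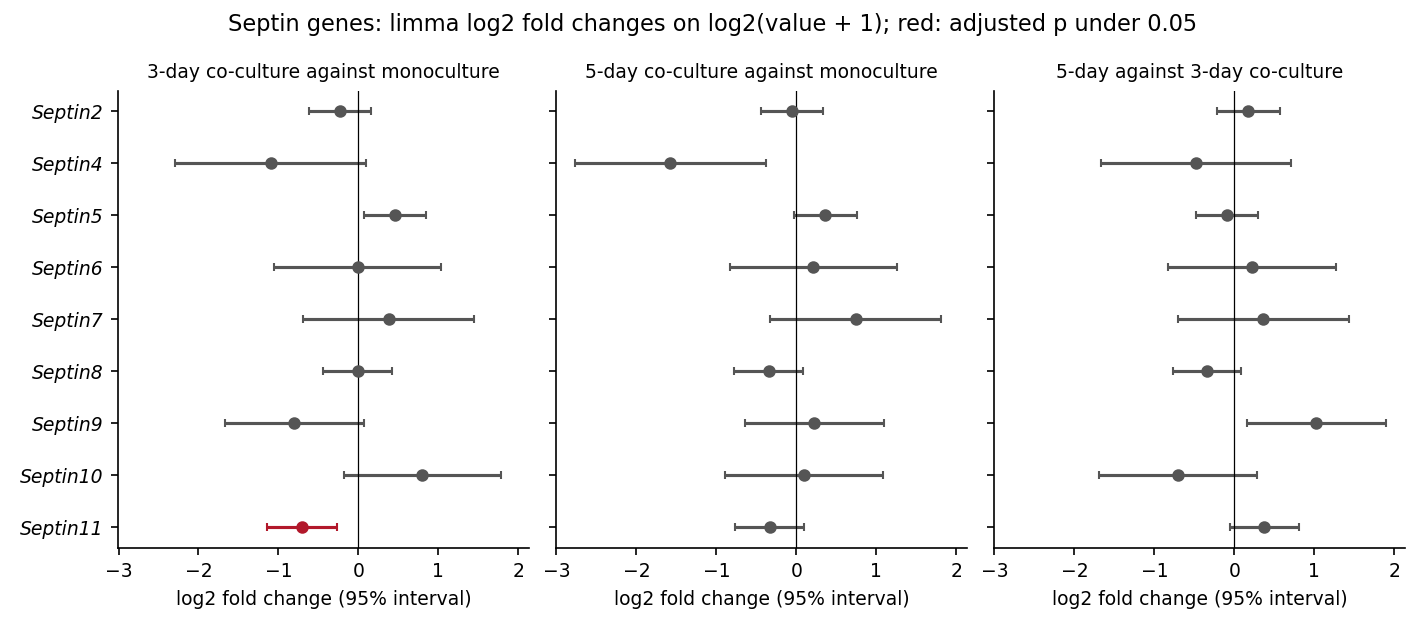
Log2 fold changes of the 9 septin genes on log2(value + 1) from limma, with 95% intervals, in the 3 comparisons. Septin11 at 3 days (-0.71) is the one point in red, with an adjusted p under 0.05, and the intervals of Septin4, Septin6, Septin7, Septin9 and Septin10 are wide.

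All 9 genes passed the filter on low values, at least 5 in at least 3 libraries. Septin4 reached 5 in only 4 libraries, all 3 monocultures and 1 of the 3-day co-cultures, so the monocultures, where it was highest, met the filter alone. Its tests against monoculture therefore give no support for a fall. At 5 days they include the 1 unadjusted p under 0.05 from limma, the edgeR call and 1 of the 2 septin genes with separated groups. Septin6 reached it in 5 libraries, and the other 7 genes in all 9.

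Septin2, the first of the SEPT2 group (NCBI gene 18000, GRCm38 chromosome 1, 93478964 to 93510260, plus strand), encodes a widely expressed subunit that binds non-muscle myosin II. Its monoculture values were 279.7, 338.9 and 285.4, its 3-day values 220.9, 278.4 and 272.7, and its 5-day values 292, 342.7 and 242.2, replicates 1 to 3 in each case. The 3-day libraries all lay below the monocultures, the nearest pair being 278.4 and 279.7, and the 5-day libraries spanned them. On the log2 scale the 3-day difference was -0.23 (95% interval -0.62 to 0.16, limma adjusted p = 0.418) and -0.05 at 5 days (-0.44 to 0.34, adjusted p = 0.872), and the exact two-sided permutation p at 3 days was 0.1, the smallest that 3 against 3 libraries can give.

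Septin5 (NCBI gene 18951, chromosome 16, 18620502 to 18629954, minus strand) is best known from neurons and platelets, where it acts at sites of vesicle release. It had the highest mean of the 9 in both co-culture groups, and in monoculture its mean of 290.7 ± 51.6 was below the 301 ± 32.7 of Septin2 (SD, n = 3). Its values were 336.1, 234.6 and 301.4 in monoculture, 450, 406.5 and 336.7 at 3 days and 394.4, 382.8 and 335.8 at 5 days. Every 3-day library was above every monoculture, the nearest pair being 336.7 and 336.1, and 1 of the 5-day libraries fell inside the monoculture range. The log2 fold changes, 0.46 at 3 days (interval 0.07 to 0.85, limma adjusted p = 0.0945) and 0.36 at 5 days (-0.03 to 0.75, adjusted p = 0.172), did not pass. GENCODE places Gp1bb, a platelet glycoprotein gene, within the Septin5 span on the same strand, with a further overlapping entry, Gm49601. Reads of the overlap may have been divided or dropped by the counting. Gp1bb, named because of this overlap, had 46.4, 43.3 and 43.1 in monoculture, 11.6, 22.3 and 29.2 at 3 days and 43.1, 45.6 and 46.2 at 5 days. Its 3-day libraries were below all the others, and whether the overlap touched the Septin5 values was not tested. GENCODE also has same-strand entries over Septin2 (a further entry named Sept2) and over Septin4 (Gm11492). On the other strand it has entries over Septin6 (Gm15008), Septin7 (Gm48272, a processed pseudogene), Septin9 (Gm16045) and Septin10 (Gm23223). The part of these entries in the values was not tested.

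Septin4 (NCBI gene 18952, chromosome 11, 87568903 to 87590539, plus strand), whose ARTS isoform promotes apoptosis, was near the lower limit of detection. Its values were 5.6, 15.4 and 5.1 in monoculture (9, 32 and 8 reads), 1.7, 2.8 and 5.6 at 3 days (1, 4 and 4 reads) and 1.8, 0.9 and 3.7 at 5 days (2, 1 and 3 reads). All 5-day libraries were below all monocultures, and replicate 2 of the monoculture held 32 of the 49 reads of that group. The monocultures alone met the filter on low values, so the tests against them give no support for a fall. The log2 fold change at 5 days was -1.57 (interval -2.77 to -0.38) with a limma adjusted p of 0.0528, just outside the threshold. Without replicate 2 of the monoculture it was -1.12 (adjusted p = 0.268), whereas without replicate 3 of the 5-day co-culture it was -1.92 (adjusted p = 0.0412) and under edgeR -2.11 (adjusted p = 0.0263). At 3 days it was -1.10 (-2.29 to 0.10, adjusted p = 0.189). In bulk libraries, fewer cells expressing a gene and less of its RNA per cell cannot be told apart, here and for the genes below.

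**Figure D3:**
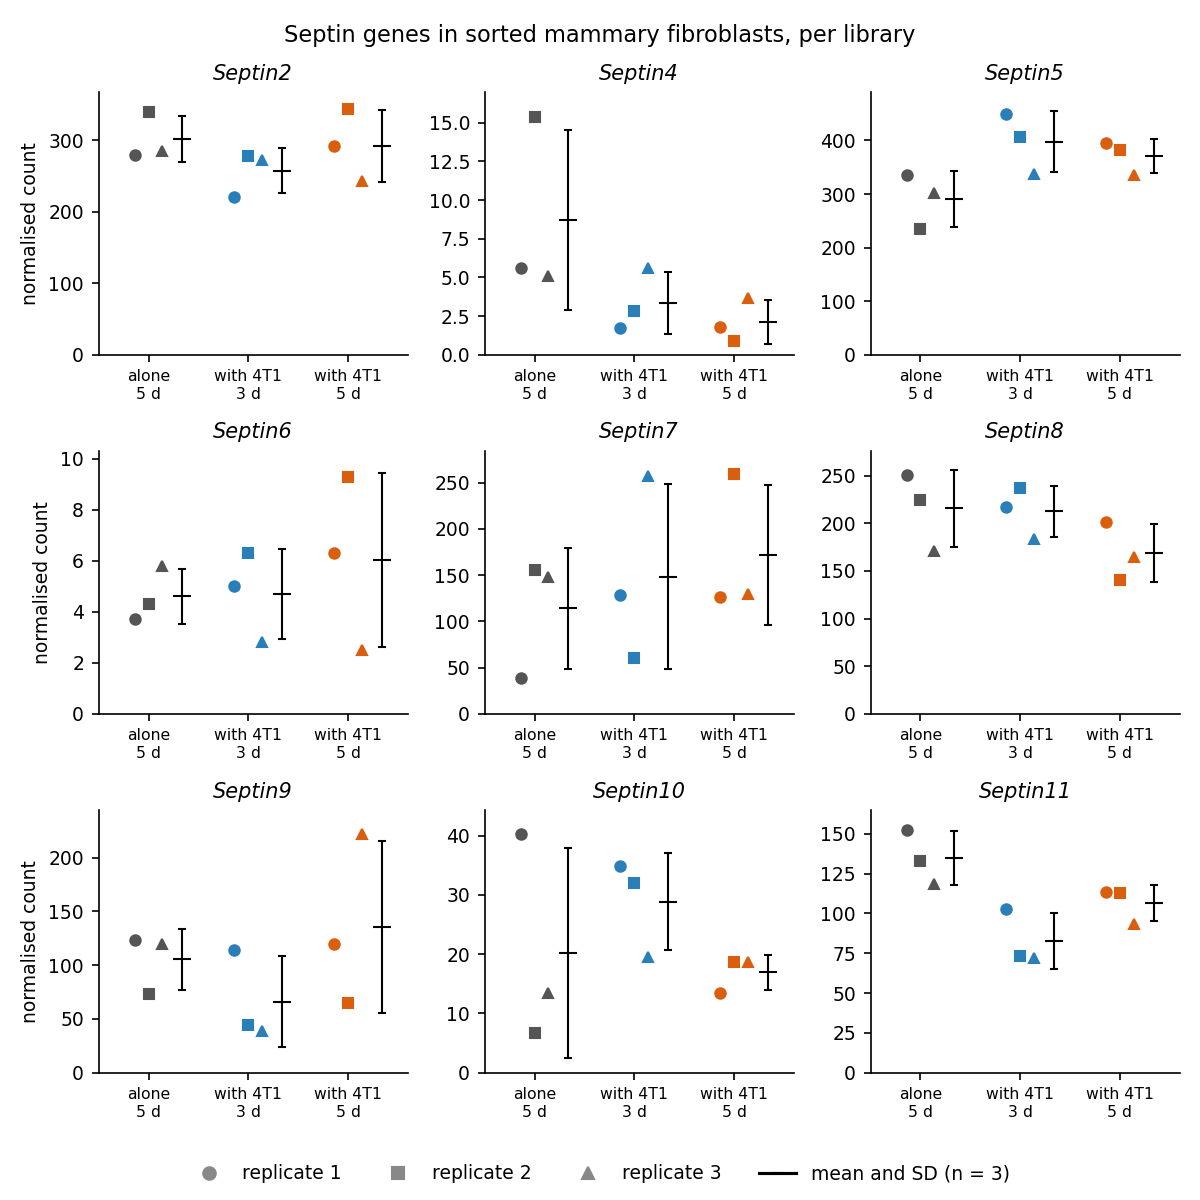
Normalised counts of the 9 septin genes in each library by group (points, marker shape by replicate), with the mean and SD of 3 libraries in black; each panel has its own axis from 0. Septin11 is lower in all 3-day co-cultures than in all monocultures, and Septin7 ranges from 38.4 to 258.9.

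In the SEPT6 group, Septin11 (NCBI gene 52398, chromosome 5, 93093437 to 93176447, plus strand, with no overlapping gene in GENCODE) is a subunit of fibroblast and neuronal septin filaments. Its values were 152.3, 133.1 and 118.3 in monoculture, 103, 73.1 and 72.3 at 3 days and 113.2, 112.7 and 93.6 at 5 days. Libraries of both co-culture groups all lay below the monocultures, and the 5-day libraries overlapped the 3-day ones. The mean fell from 135 ± 17.0 to 82.8 ± 17.5 at 3 days (SD, n = 3) and was 106.5 ± 11.2 at 5 days. The 3-day log2 fold change was -0.71 ± 0.20 (SE), with an interval of -1.14 to -0.27 and a limma adjusted p of 0.0224; the exact permutation test gave 0.1, its smallest possible p. At 5 days it was -0.33 (-0.77 to 0.10, adjusted p = 0.268), and the log2 difference between the times, 0.37 (-0.06 to 0.81, adjusted p = 0.302), did not pass either.

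The Septin11 call at 3 days rested on the spread of few libraries. It was kept in 17 of 21 alternatives and lost when any of 4 libraries was left out, with adjusted p = 0.091 without replicate 1 and 0.0612 without replicate 2 of the monoculture, and 0.0868 without replicate 2 and 0.071 without replicate 3 of the 3-day co-culture. Its fold change lay between -0.88 and -0.61 in all 21. In each group Septin11 was highest in replicate 1 and lowest in replicate 3.

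Septin8 (NCBI gene 20362, chromosome 11, 53519257 to 53549565, plus strand), known for its part in vesicle traffic, was the highest of the SEPT6 group. Its values were 250.7, 225 and 171 in monoculture, 217.5, 236.7 and 183.6 at 3 days and 201.3, 140.6 and 164.8 at 5 days. The 3-day range lay inside that of the monocultures, and the 5-day libraries overlapped both. Against monoculture the 3-day log2 fold change was -0.01 (interval -0.44 to 0.42, limma adjusted p = 0.981) and -0.35 at 5 days (-0.77 to 0.08, adjusted p = 0.237).

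Septin10 (NCBI gene 103080, chromosome 10, 59141627 to 59221847, minus strand), another SEPT6-group subunit, had values of 40.2, 6.7 and 13.5 in monoculture, 34.9, 32 and 19.5 at 3 days and 13.5, 18.6 and 18.7 at 5 days, from 14 to 65 reads. Replicate 1 of the monoculture was 6.00 times replicate 2. The 5-day libraries all lay below the 3-day ones, with a log2 difference of -0.71 (interval -1.69 to 0.28, limma adjusted p = 0.401). At 3 days the log2 fold change against monoculture was 0.80 (-0.19 to 1.79, adjusted p = 0.249), and it became 1.46 (adjusted p = 0.0163) without replicate 1 of the monoculture.

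Septin6 (NCBI gene 56526, chromosome X, 36911326 to 36991794, minus strand), which gives the group its name, was close to the floor. It had 3.7, 4.3 and 5.8 in monoculture, 5, 6.3 and 2.8 at 3 days and 6.3, 9.3 and 2.5 at 5 days, from 2 to 10 reads per library. The groups overlapped; the 5-day log2 fold change was 0.21 with an interval of -0.84 to 1.26 (limma adjusted p = 0.805).

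Septin7 (NCBI gene 235072, chromosome 9, 25252439 to 25308571, plus strand), the core subunit that no other septin replaces, varied more between libraries of 1 group than between the groups. Its values were 38.4, 155.7 and 147.8 in monoculture, 127.9, 59.9 and 257.4 at 3 days and 125.8, 258.9 and 129.8 at 5 days. The highest library was 4.05 times the lowest in monoculture, 4.30 times at 3 days and 2.06 times at 5 days, and all 3 ranges overlapped. These values came from 62 to 324 reads. The log2 fold changes were 0.38 at 3 days (interval -0.69 to 1.45, limma adjusted p = 0.647) and 0.74 at 5 days (-0.33 to 1.81, adjusted p = 0.32).

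Septin9 (NCBI gene 53860, chromosome 11, 117199661 to 117362325, plus strand), made as several isoforms from different starts and linked to carcinoma cell migration, was also uneven. It had 123.8, 73.1 and 119.5 in monoculture, 114.6, 44.6 and 39 at 3 days and 119.5, 65.2 and 222.2 at 5 days. The groups overlapped at both times: replicate 1 of the 3-day co-culture stood at the monoculture level while the other two were below it, and replicate 3 of the 5-day co-culture was the highest library of all. Against monoculture the 3-day log2 fold change was -0.80 (interval -1.67 to 0.07, limma adjusted p = 0.19), 0.23 at 5 days (-0.65 to 1.10, adjusted p = 0.748) and 1.03 between the times (0.15 to 1.90, adjusted p = 0.149). Without replicate 1 of the 3-day co-culture it was -1.28 at 3 days (adjusted p = 0.0331) and 1.51 between the times (adjusted p = 0.0398). The reads do not tell its isoforms apart.

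The spread of Septin7, Septin9 and Septin10 was set against genes of like level. The SD within groups on the log2 scale was 0.95 for Septin7, above that of 100% of the 500 tested genes nearest to it in mean, whose median SD was 0.25. It was 0.74 for Septin9 (above 99.2% of its 500 nearest, median 0.27) and 0.76 for Septin10 (above 94.4%, median 0.40). The other 6 were ordinary: Septin2, Septin5, Septin8 and Septin11 had SDs between 0.20 and 0.25, and those of Septin4 (0.70) and Septin6 (0.56) were above 52.8% and 39% of genes as low as they were. The leading component of the variation within groups over all genes held 32.2% of that variation. In each group Septin7 was highest in the library with the highest score on it (18.1, 39.2 and 20.3 in monoculture, 3-day and 5-day co-culture). Septin9 was lowest in the same libraries. At the other end the match for Septin7 failed at 3 days: replicate 1 had the lowest score (-34.4), but Septin7 was lowest in replicate 2. The part of this component in the spread of Septin7 and Septin9 was not tested.

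**Figure D4:**
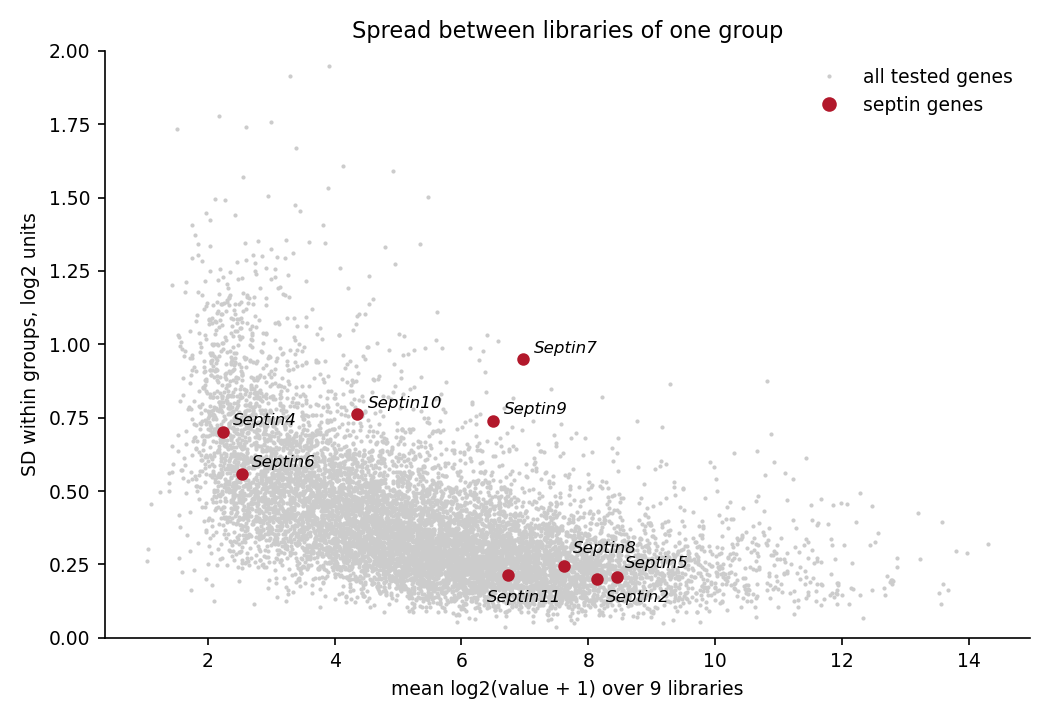
SD within groups against mean, both on log2(value + 1) over 9 libraries, for all tested genes (grey) and the septin genes (red). Septin7 (SD 0.95), Septin9 (0.74) and Septin10 (0.76) lie above the body of genes of their level, and the other 6 within it.

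The genes whose levels across the 9 libraries were most like those of Septin11, among 10638 others, were Basp1, a membrane-associated protein of growing neurites (Pearson r = 0.976), Ccdc12 (0.962) and Apol6 (0.950). The points share libraries and group differences, so these values only describe likeness. Basp1 had 1918, 1485.3 and 1477 in monoculture, 1356.7, 856.9 and 742.9 at 3 days and 1363.9, 1313.2 and 1081.1 at 5 days. Like Septin11, it was highest in replicate 1 and lowest in replicate 3 of each group.

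Some of the genes listed with the septins as regulators fell in co-culture. Of 8 such genes, those of CDC42 itself, the BORG proteins CDC42EP1 to CDC42EP5, the nucleotide exchange factor ARHGEF18 and the cell-surface proteoglycan SDC4 (whose septin role is uncertain), 5 fell and 0 rose at 3 days, and 4 fell and 0 rose at 5 days (3 to 5 and 4 to 5 called over the alternatives); 0 were called between the times in limma, and 0 to 1 over the alternatives. Over all tested genes 9.37% passed as lower at 3 days and 11.4% at 5 days. Their median log2 fold change was -0.81 at 3 days and -0.90 at 5 days, against 0.0014 and -0.0078 over all tested genes. Of the 5 BORG genes alone, 4 fell at 3 days and 3 at 5 days, with 2 to 4 and 3 to 4 called over the alternatives, and all 5 had fold changes below 0 at both times in the fit over all libraries.

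Cdc42ep2 had the lowest adjusted p of the BORG genes at both times. Its values were 91.6, 96.6 and 91.3 in monoculture, 24.9, 18.8 and 25 at 3 days and 28.8, 31.7 and 18.7 at 5 days. All co-culture libraries were at 31.7 or lower and all monocultures at 91.3 or higher. The log2 fold change was -1.99 at 3 days (limma adjusted p = 4.48e-05) and -1.81 at 5 days (adjusted p = 7.09e-05).

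Cdc42ep3 had 170.8, 137.5 and 173.5 in monoculture, 106.3, 75.2 and 76.5 at 3 days and 51.2, 55.9 and 71.2 at 5 days. The co-culture libraries were all lower than the monocultures, with log2 fold changes of -0.90 (limma adjusted p = 0.00663) and -1.43 (adjusted p = 0.000136). Cdc42ep4 too was lower in all co-culture libraries than in all monocultures. It had 108.9, 109.1 and 102.8 in monoculture, 49.8, 78 and 68.2 at 3 days and 72.8, 70.8 and 76.2 at 5 days. It passed at 3 days (-0.73, adjusted p = 0.0207), except where any monoculture library or replicate 1 of the 3-day co-culture was left out (adjusted p up to 0.072), and missed at 5 days (-0.54, adjusted p = 0.0705), where it passed in 3 alternatives: the fit of only the compared groups (adjusted p = 0.0421), edgeR (0.0483) and without replicate 1 of the 3-day co-culture (0.0405).

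Cdc42ep5 had 105.2, 107.2 and 129.2 in monoculture, 111.3, 51.5 and 33.4 at 3 days and 52.1, 41 and 47.4 at 5 days. Replicate 1 at 3 days stayed within the monoculture range, and the 3-day call (-0.96, limma adjusted p = 0.0451) was lost in 12 of 21 alternatives, with adjusted p up to 0.196. The 5-day libraries were all lower than the monocultures (-1.26, adjusted p = 0.00912). Cdc42ep1 did not pass, with log2 fold changes of -0.48 (adjusted p = 0.28) and -0.41 (adjusted p = 0.35). Sdc4 had means of 88.4 ± 12.8, 26.9 ± 11.3 and 12.9 ± 5.05 (SD, n = 3), a log2 fold change of -1.75 at 3 days (adjusted p = 0.00126) and -2.73 at 5 days (adjusted p = 1.43e-05). Cdc42, the small GTPase that acts through the BORG proteins, had means of 1037 ± 129, 883 ± 84.5 and 1032 ± 79.9 and did not pass at either time (adjusted p = 0.364 and 0.992).

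**Figure D5:**
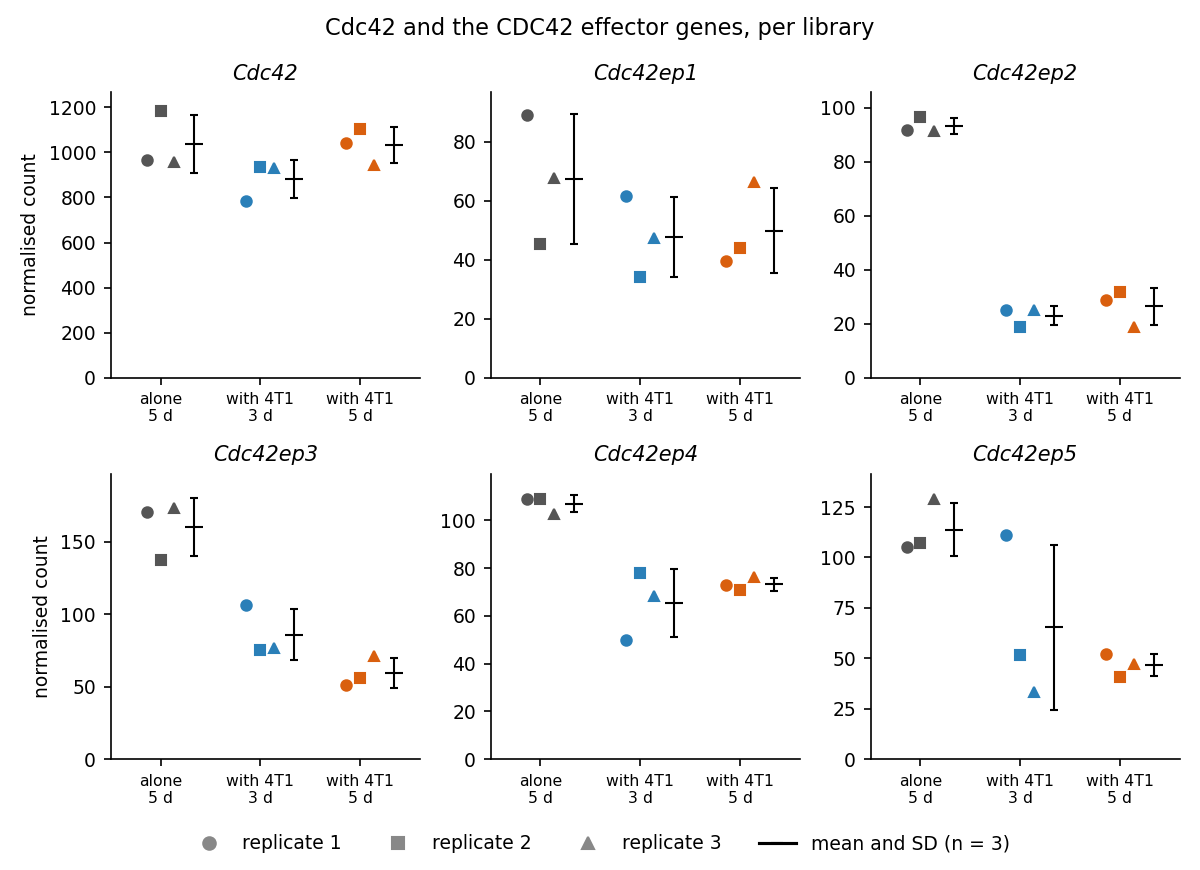
Normalised counts of Cdc42 and the 5 BORG genes in each library by group (points, marker shape by replicate), with the mean and SD of 3 libraries in black and axes from 0. Cdc42ep2, Cdc42ep3 and Cdc42ep4 are lower in every co-culture library than in every monoculture. In 1 library of the 3-day co-culture Cdc42ep5 stays at 111.3.

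Other cytoskeletal lists are set beside the shares of all tested genes that passed, 10.6% higher and 9.37% lower at 3 days, 12.6% and 11.4% at 5 days, and 3.20% and 3.71% between the times. Of 14 genes of the cytokinesis ring and midbody, where septins gather in dividing cells, 1 fell at 3 days and 4 fell at 5 days, with 0 higher, so that the 3-day count was below the share of all genes; Prc1, which bundles the spindle midzone, fell by 1.84 at 5 days and Plk1, a mitotic kinase, fell by 1.35 on the log2 scale (limma adjusted p = 0.00126 and 0.0054).

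Among 17 tested tubulin and microtubule-associated genes, on whose polymers septins also assemble, 0 rose and 6 fell at 3 days, 6 rose and 1 fell at 5 days, and 8 rose and 0 fell between the times, against 3.20% of all genes higher there. Tubb6 was at 592 ± 140 in monoculture, 673 ± 20.8 at 3 days and 2019 ± 396 at 5 days, a rise of 1.56 on the log2 scale between the times (limma adjusted p = 0.000216). Tuba1a fell by 1.18 at 3 days and rose by 1.45 between the times (limma adjusted p = 0.000952 and 0.000777). Of 7 tested intermediate filament and lamin genes 1 rose at 3 days and 2 at 5 days, with 0 lower, and 1 rose between the times; Nes (nestin) rose by 2.88 and 3.61 (adjusted p = 4.18e-06 and 2.47e-07) and Vim (vimentin) by 1.07 at 5 days (adjusted p = 0.000666). Of 14 actin and actin-bundling genes 1 rose and 1 fell at 3 days, 3 rose and 0 fell at 5 days, and 1 rose between the times. In either direction these counts were close to or below 20.0%, 24.0% and 6.91% of all genes. The counts of higher genes at 5 days and between the times were above the 12.6% and 3.20% of all genes, but rest on few genes. Tagln2, an actin-binding protein of the transgelin family, rose by 1.04 and 1.27 (limma adjusted p = 0.00052 and 6.17e-05). Fscn1 (fascin) fell by 1.24 at 3 days and rose by 1.05 between the times (limma adjusted p = 0.000324 and 0.00463). At 5 days its log2 fold change against monoculture was -0.19 (limma adjusted p = 0.528). The epithelial marker sums given above were higher in both co-culture groups than in monoculture. Between the times, where most called tubulin genes rose, 0 of 16 tested epithelial genes passed as higher and 1 as lower. The part of these markers in the changes of the lists was not tested.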

How the data were processed

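Messenger RNA 3′ ends were sequenced in 9 libraries. Per the submitters' processing notes, bcl2fastq, STAR 2.4.2a, HTSeq and the mm10 build were used; the annotation, strand setting, gene filter and library factors are not given in the sources used here. The authors deposited normalised counts per gene, a signal on a count scale rounded to 1 decimal. Columns were matched to samples by name; 1 of them lacks the name of the carcinoma line, and it was assigned to the 5-day co-culture, replicate 2, because the replicate 2 monoculture is another column. Low values lay on a regular grid whose step was taken as 1 read. Division by that step gave whole reads (within 0.051) for 99.87% to 100% of the values in each library. Each library thus had 1048471 to 3567326 reads. Whether they were corrected by molecular identifiers cannot be told from these values.

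Genes at 5 or more in at least 3 libraries (10639) were tested with limma 3.58.1 in R 4.3.3 (eBayes with trend) on log2(value + 1), 1 mean per group over all 9 libraries, two-sided, with Benjamini-Hochberg adjustment over all tested genes and a threshold of 0.05. Fold changes on this scale understate the change of low genes. Beside it stands the exact permutation test of 3 against 3 libraries. The alternatives were other pseudocounts (0.5 and 5), dropping the filter or asking for a mean of 20, 3 rescalings, the replicate number as a block, fits limited to the groups compared, edgeR 4.0.16 and DESeq2 1.42.0 on the recovered reads, thinning to the shallowest library, and leaving out each library. The scripts were tested on simulated data. Positions are from GENCODE M21 (GRCm38), and transcripts of 1 gene were not told apart.

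The septin genes, the cytoskeletal lists (septin regulators, cytokinesis, tubulins, intermediate filaments, actin) and the marker lists were chosen with earlier results of these data known; 1 further list is not reported here. The rule named every septin gene, up to 2 called genes per list and comparison by the smallest adjusted p (or the highest member), the 3 genes most like a called septin and the 2 highest genes of each marker list; the text names a selection of these. All BORG genes, Cdc42, Gp1bb, Epcam and Cdh1 were added afterwards, with values in view.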

Additional observations from a re-analysis of the deposited data

How the results depend on the processing

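The Septin11 fall at 3 days kept its direction in all 21 alternatives. The septin genes called at 3 days numbered 1, and 0 to 2 when 1 library was left out; at 5 days 0, and 0 to 1; between the times 0, and 0 to 1. At 5 days 1 septin gene, Septin4 each time, was called with a pseudocount of 5, with no filter, in the fit of only the 2 compared groups and in edgeR. All genes called between the times numbered 735, 478 after thinning to the shallowest library, and 311 to 749 with 1 library left out. Fold changes near 0 turned sign. On the log2 scale, Septin6 at 3 days became 0.0041 with a pseudocount of 5, 0.094 in edgeR, 0.0653 in DESeq2, 0.53 after thinning, and -0.21 to 0.26 with 1 library left out. Septin8 at 3 days became 0.019 under quantile normalization and -0.17 to 0.11 with 1 library left out. Septin10 at 5 days became -0.25 in edgeR, -0.26 in DESeq2 and -0.46 to 0.75 with 1 left out. Septin6 between the times became -0.27 after thinning and -0.12 to 0.66 with 1 left out. Leaving 1 library out also turned Septin7 at 3 days (-0.27 to 0.91), Septin2 (-0.17 to 0.075), Septin9 (-0.22 to 0.66) and Septin6 (-0.13 to 0.65) at 5 days, and Septin5 (-0.21 to 0.00058) and Septin7 (-0.17 to 0.88) between the times. The cause was not tested. Over all alternatives the list counts at 3 days, at 5 days and between the times ranged over 0 to 1, 2 to 4 and 0 to 1 (cytokinesis), 5 to 6, 4 to 8 and 6 to 8 (tubulins) and 1 to 2, 2 and 1 (intermediate filaments). With the replicate block, 2219, 2663 and 827 genes were called in the 3 comparisons, against 2129, 2552 and 735 without it. The septin genes called numbered 1, 0 and 0 both with and without the block. Deviations of same-numbered libraries correlated between -0.114 and 0.233, and those of unlike-numbered libraries between -0.298 and 0.323. The numbers were not taken to pair the samples, but these ranges cannot decide whether they do. Depth was lowest for Septin4 and Septin6, with 1 to 32 and 2 to 10 reads per library.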

Other observations

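In each of the 3 groups the library with the highest Septin9 had the lowest Septin2: replicate 1 of the monoculture (123.8 and 279.7), replicate 1 of the 3-day co-culture (114.6 and 220.9) and replicate 3 of the 5-day co-culture (222.2 and 242.2). The reverse did not hold throughout: at 3 days Septin9 was lowest in replicate 3 and Septin2 highest in replicate 2. Other septin pairs matched as well: Septin5 and Septin11 were both highest in replicate 1 of each group. With many pairs and 3 libraries per group, a match of this kind is not evidence of a link. The pattern was seen after the values were known and was not tested.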
